A study of Homo sapiens with 48 samples.

Results

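The interferon response genes described here are 38 genes, chosen by name, that take part in the sensing of foreign nucleic acid, in interferon signaling or in the antiviral state that interferon sets up. All 38 were found among the 20033 protein-coding genes of the GENCODE 44 annotation on chromosomes 1 to 22, X and Y, and the other 19995 genes served as background. A gene was counted for a peak list when any base of a peak lay within 50 kb of the start site of any of its annotated transcripts.

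The peaks come from chromatin immunoprecipitation and sequencing (ChIP-seq) in L3.6pl, an established human pancreatic ductal adenocarcinoma cell line. The 48 samples fall into 16 conditions of 3 replicates. RELA, RELB and acetylated histone H3 lysine 27 (H3K27ac) were each profiled after vehicle (PBS), TNFα for 30 min, TNFα for 6 h, TWEAK for 30 min and TWEAK for 6 h, and FOSL1 was profiled after vehicle only. The labels name no genetic change in any condition, and how long vehicle was applied is not given in the sources used here.

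RELA is the activating subunit of canonical NF-κB, which TNFα releases into the nucleus within minutes, and RELB is the subunit of the noncanonical pathway, which TWEAK activates more slowly through processing of its partner p100. Interferons signal through JAK kinases to complexes that include STAT2 and IRF9 and bind the interferon-stimulated response element (ISRE) of antiviral genes. NF-κB and interferon regulatory factors (IRFs) meet at the *IFNB1* gene, where RELA, IRF3 or IRF7 and AP-1 factors bind a shared enhancer in infected cells. FOSL1 is an AP-1 factor, and H3K27ac marks active promoters and enhancers.

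Each condition was deposited as 1 list of peaks from merged replicates, so no value here has a replicate error and no difference between conditions was tested. Every share and fold enrichment is a description of these lists. The lists differ in length, from 2414 regions for RELB at 30 min of TWEAK to 11266 for RELA at 30 min of TNFα among the RELA and RELB lists, and the read depth behind them is unknown. For RELA at 30 min of TNFα the peak names carry the replicate number 1 beside the word merged, and it is not settled that all 3 replicates entered that list. Regions in tandem repeats made up 85.6% of the RELA vehicle list, 26.3% of the RELA list at 30 min of TNFα and 59.6% of the RELB list at 6 h of TWEAK, and only the region near *IRF7* was of that kind among the sites described below. H3K27ac lay within 1 kb of a start site of 6 of 6 epithelial markers in vehicle, among them *EPCAM* and *KRT19*. It also lay there at the immune markers *CD3E* and *CD68* and at 3 of 4 stromal or endothelial markers (*COL1A1*, *ACTA2*, *PECAM1*), while *PTPRC* and *COL1A2* had none, so promoter acetylation alone did not set the marker groups apart.

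Regions that the results below refer to for their motif matches are shown first. They lie within 1 kb of a start site and were taken from those with the higher RELA fold enrichment (ChIP over input) at 30 min of TNFα. The letters were read from hg38 on the plus strand, and capitals mark matches to the NF-κB consensus or to the ISRE (GAAA, any 2 bases, GAAA) on either strand. The window at *OAS3*, chr12:112938328-112938357, holds an ISRE directly beside a palindromic NF-κB match. The window at *IRF1* is chr5:132490778-132490868, and that at *IFIH1* is chr2:162318970-162318999. The window at *GBP1* is chr1:89065316-89065345, and that at *IRF2* is chr4:184474559-184474627.
OAS3: aacGAAACTGAAAgcaGGGAATTTCCCaag
IRF1: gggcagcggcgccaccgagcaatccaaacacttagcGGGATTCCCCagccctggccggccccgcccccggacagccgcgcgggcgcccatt
IFIH1: catgtgatttGGGACTTTCCaaaggggaag
GBP1: agagtaatatGAAACTGAAAgtacttcgtt
IRF2: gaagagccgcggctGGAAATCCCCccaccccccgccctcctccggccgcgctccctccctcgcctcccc
Windows at *OAS3*, *IFIH1* and *GBP1* were cut to 30 bases, since annotated untranslated sequence runs through them. Regions at a second *IRF1* start site and at *IRF3* held neither motif within 100 bases of the summit and are not printed.

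After 30 min of TNFα, RELA regions lay within 50 kb of 20 of the 38 interferon response genes (52.6%), against 44.3% of the other protein-coding genes. At 6 h the count was 16 genes (42.1%), against 24.4% of the others. In vehicle it was 5 genes (*IRF1*, *IRF2*, *IRF3*, *IRF7* and *STAT2*), against 4.53% of the others. Both shares after TNFα lay above the background, and they did so in each alternative run. After TWEAK, RELA regions lay near 8 genes at 30 min, against 6.85% of the others. These were the 5 genes with RELA in vehicle and *OAS1*, *OAS2* and *OAS3*, which share a site. At 6 h of TWEAK they lay near 3 genes (*IRF3*, *IRF7* and *STAT3*), against 4.61%, and of these only *STAT3* had no RELA in vehicle.

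RELB regions were concentrated in a single condition. At 6 h of TWEAK they lay within 50 kb of 13 of the 38 genes (34.2%), against 12.0% of the other genes. RELB lay near 2 genes (*IRF3* and *IRF7*) in vehicle, against 2.7% of the others, and near the same pair at 6 h of TNFα, against 3.35%. At 30 min of TNFα RELB lay near none of the genes, against 1.39%, and at 30 min of TWEAK near *IRF7* alone, against 1.23%. All 13 genes with RELB at 6 h of TWEAK also had RELA at 30 min of TNFα, as did 2238 of the 2408 other genes with RELB (11.2% of all the others had both), so this overlap was close to that of genes in general. No gene was reached by RELB alone: 20 genes had a region in any of the 10 RELA and RELB lists, against 46.9% of the others, and these were the 20 with RELA at 30 min of TNFα.

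**Figure D1:**
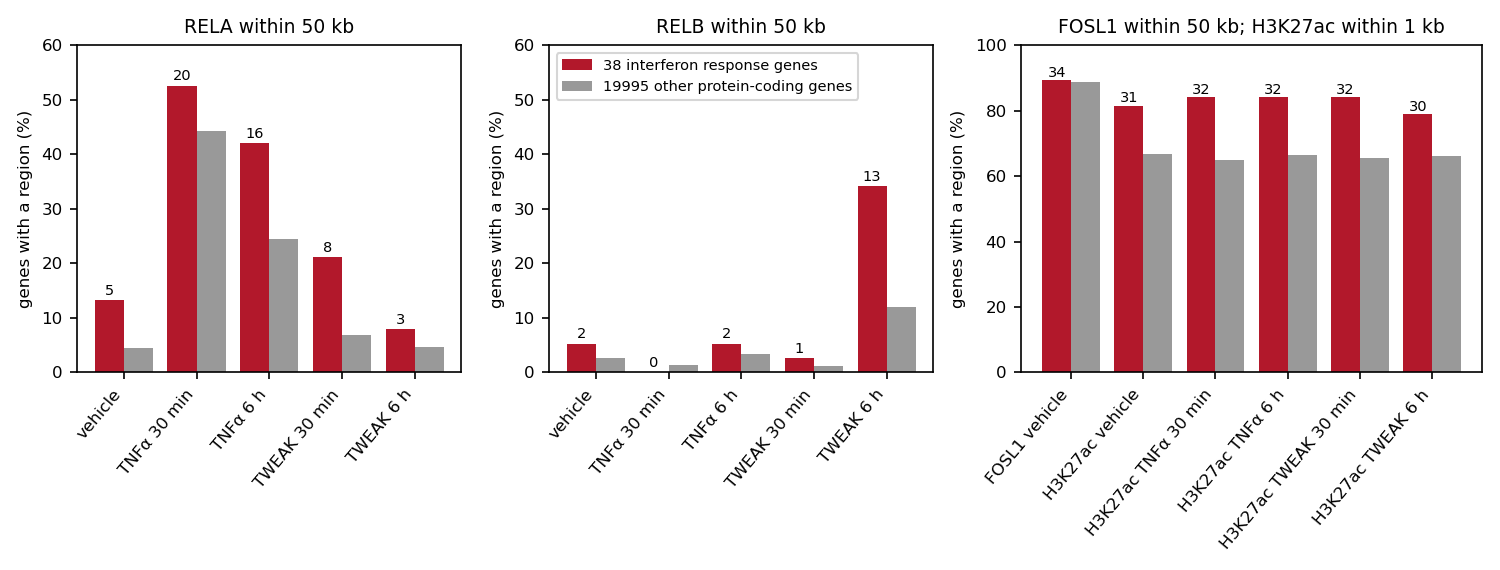
Percent of genes with a region, for the 38 interferon response genes (red, with the number of genes above each bar) and the 19995 other protein-coding genes (grey), by antibody and condition. RELA after TNFα (20 and 16 genes) and RELB at 6 h of TWEAK (13 genes) stand above the other RELA and RELB lists, while the H3K27ac bars change little between conditions and FOSL1 has a vehicle bar only.

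Leaving out genes that had a region of the same antibody in vehicle, 15 genes had RELA at 30 min of TNFα, against 40.1% of the others, and 11 at 6 h, against 20.3%. RELB at 6 h of TWEAK without RELB in vehicle lay near 11 genes, against 9.84%. On this count the gene set (39.5%) did not exceed the background for RELA at 30 min, a side that turned in 6 alternatives, such as 1 start site per gene (39.5% against 35.1%) and a distance of 10 kb (28.9% against 20.1%). Several genes share their windows: the 38 genes form 28 separate loci, of which 16 had RELA at 30 min of TNFα, 13 at 6 h, and 10 had RELB at 6 h of TWEAK. The genes of the set also had more annotated start sites than the others, with a median of 10.5 against 5.0. With 1 start site per gene, RELA at 30 min of TNFα lay near 18 of 38 genes (47.4%, against 38.6% of the others), and RELB at 6 h of TWEAK near 12 (31.6%, against 9.88%).

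Closer to the genes, RELA regions lay within 1 kb of a start site of 11 genes at 30 min of TNFα (28.9%, against 11.4% of the others). These were *IFIH1*, *IRF1*, *IRF2*, *IRF3*, *IRF9*, *STAT2*, *OAS3*, *IFIT3*, *GBP1*, *GBP2* and *ISG20*. At 6 h, 5 of them remained (*IFIH1*, *IRF1*, *IRF9*, *OAS3* and *IFIT3*), against 4.91% of the others. *IRF1* alone had such a region in vehicle (background 0.57%), and *IRF1* and *OAS3* had one at 30 min of TWEAK (background 1.22%). RELB at 6 h of TWEAK lay within 1 kb of *IFIH1*, *IRF1*, *IRF2*, *OAS3* and *IFIT3*, which is 5 genes or 13.2%, against 1.82% of the others.

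By role, of the 11 regulators (sensors, IRFs, STATs and interferons), 9 had RELA at 30 min of TNFα (81.8%, against 44.3% of the other protein-coding genes) and 7 had RELB at 6 h of TWEAK (63.6%, against 12.0%). Of the 27 effectors, 11 had RELA (40.7%, against the same 44.3%) and 6 had RELB (22.2%, against 12.0%). The difference between these groups was not tested, and effectors within 1 cluster share their sites. Nor were the groups matched for annotated start sites, which widen the window searched. Among regulators *IRF9* had 56, *STAT2* 29, *STAT3* and *IRF1* 28 each and *IRF3* 26, while *IFNB1* and *IFNL1* had 1 each. Effectors ranged from 2 at *IFIT1* to 34 at *MX1*. At single sites, overlapping regions of the 10 lists merged into 42 separate sites near the gene set. Of these, 38 were in the RELA list at 30 min of TNFα, 22 in that at 6 h and 13 in the RELB list at 6 h of TWEAK. RELA at both TNFα times marked 20 sites, 18 were seen at 30 min and not at 6 h, and 2 at 6 h and not at 30 min. The nearest protein-coding start site belonged to the gene set at 23 of the 42 sites, so for the other 19 a different gene lay closer.

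**Figure D2:**
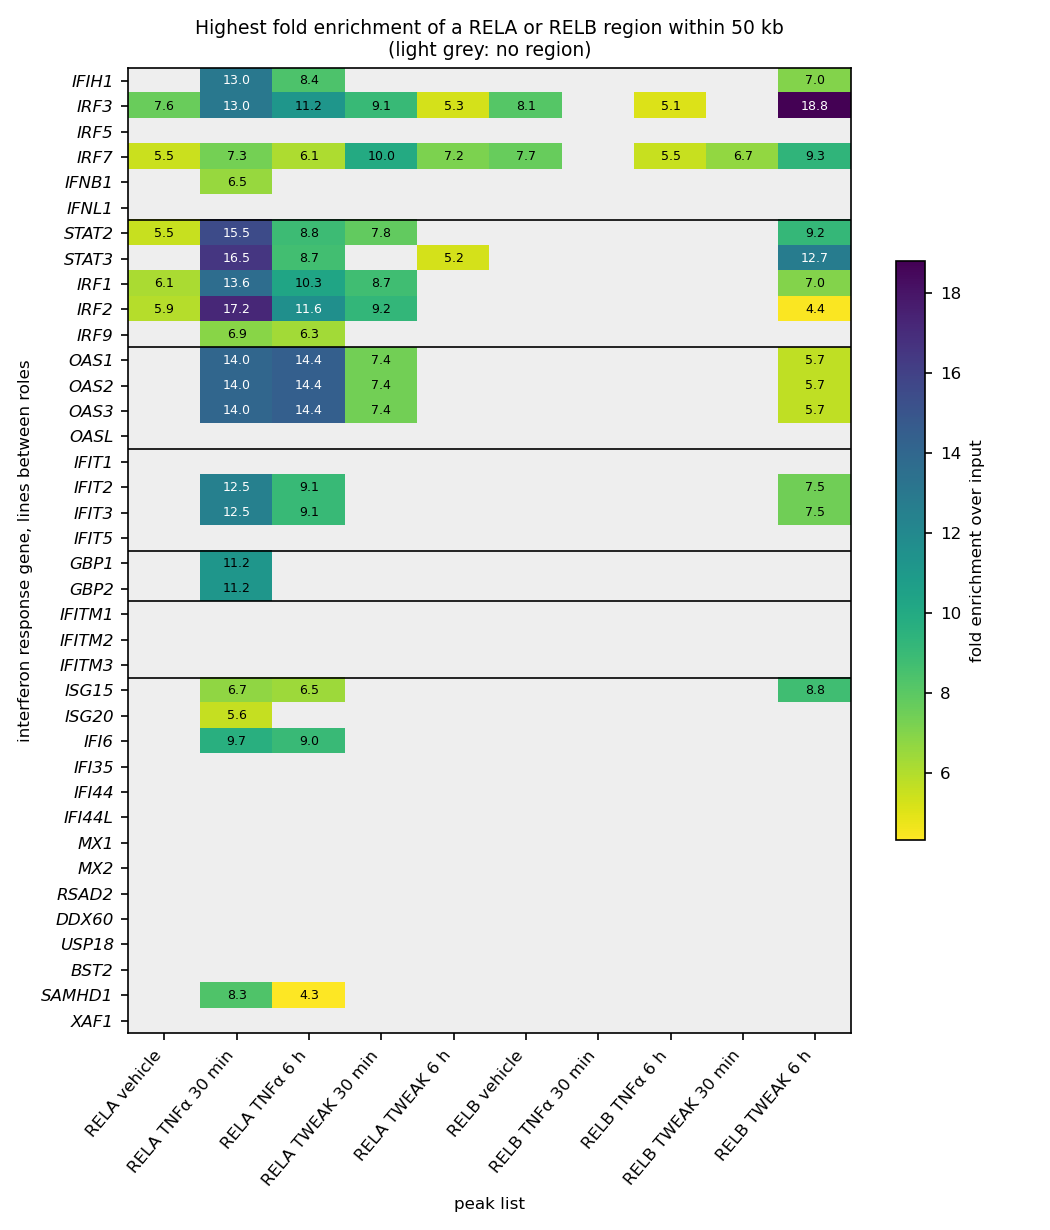
Highest fold enrichment over input of a RELA or RELB region within 50 kb of each of the 38 genes (rows, grouped by role) in the 10 lists (columns). Coloured cells are most frequent in the RELA TNFα columns (20 and 16 genes) and the RELB column at 6 h of TWEAK (13 genes). *IRF5*, *IFNL1*, *OASL*, *IFIT1*, *IFIT5*, *IFITM1*, *IFITM2*, *IFITM3* and most of the last group have none. Genes with equal values in neighbouring rows share a site.

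Among the sensors and inducers, *IFIH1* encodes MDA5, which detects long double-stranded RNA in the cytoplasm. A site 329 bp upstream of its start (chr2:162318712-162319126) had a RELA fold enrichment of 13.0 and 8.38 at the earlier and later TNFα time, and a RELB value of 7.0 at 6 h of TWEAK. It was in no RELA or RELB list of vehicle and in no RELA list after TWEAK, while FOSL1 (3.84 in vehicle) and H3K27ac (3.81 to 4.44 in all 5 lists) were called there. This is the site whose NF-κB match is printed above, and the nearest start site is that of the neighbouring gene *GCA*.

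*IRF3*, a factor that is activated downstream of such sensors, had sites at several distances. The one at chr19:49640087-49640494, beside *RRAS* and 20697 bp from the nearest *IRF3* start, was called in 8 of the 10 lists. Its RELA values were 7.64 in vehicle, 13.0 and 11.2 after TNFα, 9.05 at 30 min and 5.26 at 6 h of TWEAK. Its RELB values were 8.13 in vehicle, 5.09 at 6 h of TNFα and 18.8 at 6 h of TWEAK, the last being the highest of any RELB region near the gene set. A site in *PRMT1* (chr19:49678349-49678620) had RELA values of 12.6 and 9.96 at the TNFα times and was in no other RELA or RELB list. A site at an alternative *IRF3* start (chr19:49664753-49664982), 982 bp downstream of the canonical one, carried RELA only at 30 min of TNFα, with 7.99.

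*IRF7*, the factor that amplifies interferon production, had a single site, in intron 3 of *PHRF1* (chr11:585252-585644). It was called in 9 of the 10 lists, and only RELB at 30 min of TNFα lacked it. RELA was 5.49 in vehicle, 7.31 and 6.11 after TNFα, and 9.97 and 7.15 after TWEAK. RELB was 7.7 in vehicle, 5.52 at 6 h of TNFα, and 6.67 and 9.34 after TWEAK. The site was thus present with and without treatment. The sequence at its summit matched itself at 0.584 of positions when shifted, above the limit of 0.4 for a tandem repeat, and it held none of the motifs searched. Without regions of that kind, 19 genes had RELA at 30 min of TNFα and 12 had RELB at 6 h of TWEAK.

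*IFNB1*, which encodes interferon beta, had no RELA or RELB region near its start. Its only RELA site lay 20750 bp downstream (chr9:21057085-21057320), with a value of 6.54 at 30 min of TNFα and no call in the other 9 lists. H3K27ac within 500 bp of that summit was called only at 6 h of TNFα, with 3.93. *IRF5*, another factor of the sensing pathways, and *IFNL1*, an interferon of epithelia, had no RELA or RELB region in any list.

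Of the 5 signal transducers and factors, RELA lay near all 5 at both TNFα times (44.3% and 24.4% of the other genes), and RELB at 6 h of TWEAK near 4 of 5, all but *IRF9* (12.0% of the other genes). *IRF1*, a factor that itself responds to both interferon gamma and NF-κB, had 6 sites. The promoter site (chr5:132490677-132491086, 54 bp upstream of the canonical start) had RELA values of 6.14 in vehicle, 13.6 and 9.82 after TNFα for 30 min and 6 h, and 8.74 at 30 min of TWEAK. It was not called for RELA at 6 h of TWEAK, when RELB reached 6.55. It was also a FOSL1 region in vehicle, with 8.75.

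The other *IRF1* sites had lower RELA values than the promoter at 30 min of TNFα. At chr5:132445774-132446225, RELA was 9.03 and 8.99 after TNFα and RELB was 7.0 at 6 h of TWEAK. At chr5:132498244-132498490, 7617 bp upstream of the canonical start, RELA was 7.81 at 30 min and 10.3 at 6 h of TNFα. H3K27ac within 500 bp of that summit was called at both TNFα times (2.65 and 2.39) and in neither vehicle nor TWEAK. The neighbouring site described next had the same 2 values after TNFα, and higher ones in vehicle (3.13) and after TWEAK (3.17 and 3.24). The call may thus reflect the edge of a region already present in vehicle. The site at chr5:132496968-132497344, within 1 kb of an alternative start, had RELA of 9.30 at 30 min of TNFα and no other RELA or RELB call, and it carried FOSL1 in vehicle (3.9) and H3K27ac in all 5 lists (2.39 to 3.24).

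*IRF2*, which competes with *IRF1* for the same elements, carried the strongest RELA site near the gene set. It lay beyond the 3′ end of the gene (chr4:184383528-184383818), 9302 bp from the nearest annotated start and 90880 bp from the canonical one. RELA there was 5.91 in vehicle, 17.2 and 11.6 after TNFα for 30 min and 6 h and 9.22 at 30 min of TWEAK, with no RELB call, and a FOSL1 region of 11.9 covered it. The *IRF2* promoter (chr4:184474448-184474787) had RELA only at 30 min of TNFα, with 10.2, and RELB at 6 h of TWEAK, with 4.40. The promoter site thus had both subunits and the distal site RELA alone.

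*STAT3*, which carries signals of the interleukin 6 family, had a site in its intron 14 (chr17:42329017-42329262). It lay 2400 bp from the nearest annotated start and 59304 bp from the canonical one. RELA was 9.30 and 8.72 after TNFα and 5.25 at 6 h of TWEAK, and RELB was 12.7 at 6 h of TWEAK. It was the only site in this group with RELA at 6 h of TWEAK, and it held 2 NF-κB matches and a STAT match (TTCNNNGAA). A stronger RELA site between *STAT5A* and *STAT5B* (chr17:42287983-42288382), with 16.5 and 7.74 at the TNFα times, had no RELB call. That site lay 29304 bp from the nearest *STAT3* start and 100231 bp from the canonical one.

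*STAT2*, which works with IRF9 in the complex that interferon activates, had its strongest RELA site beside *CS* (chr12:56300311-56300591). That site lay 47606 bp from the nearest *STAT2* start and 59638 bp from the canonical one. RELA was 5.54 in vehicle, 15.5 and 8.84 after TNFα and 7.79 at 30 min of TWEAK. A site beside *IL23A* (chr12:56338687-56338870) had low RELA values of 3.87 and 4.92 after TNFα and a RELB value of 9.16 at 6 h of TWEAK. At *PAN2* (chr12:56333632-56334129) RELA was 11.4 and 6.14 after TNFα. The *STAT2* promoter had RELA only at 30 min of TNFα, at 3.79, the lowest RELA value of that time near the gene set. *IRF9* had RELA at its promoter at both TNFα times, with 5.77 and 4.19, at a site with a STAT match.

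**Figure D3:**
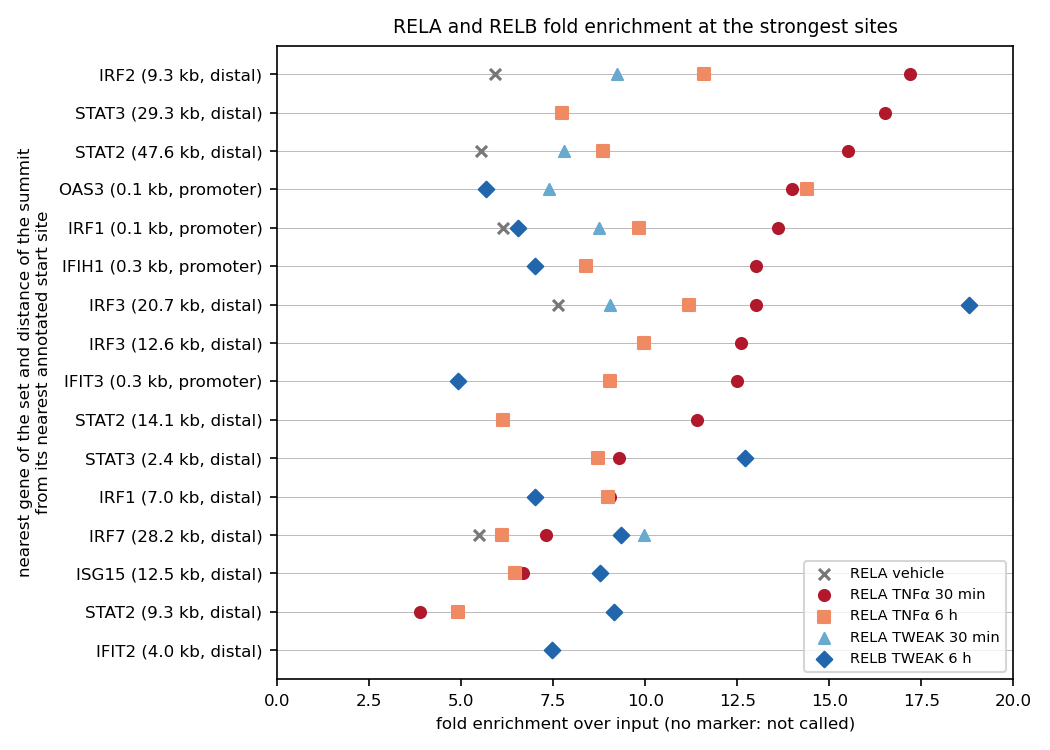
Fold enrichment over input at the sites with the 10 highest RELA values at 30 min of TNFα or with one of the 10 highest RELB values at 6 h of TWEAK, named by the nearest gene of the set. RELA at 30 min of TNFα (circles) lies right of RELA at 6 h (squares) at all sites called at both times but *OAS3* and the *STAT2* site 9.3 kb away, and the highest RELB values (diamonds) are those of the *IRF3* site near *RRAS* (18.8) and of *STAT3* intron 14 (12.7).

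The OAS enzymes make the second messenger that activates RNase L. *OAS1*, *OAS2* and *OAS3* lie in a row on chromosome 12 and shared 1 site, at the *OAS3* start (chr12:112938221-112938576). After TNFα RELA was 14.0 at 30 min and 14.4 at 6 h, after 30 min of TWEAK it was 7.39, and RELB was 5.68 at 6 h of TWEAK, with no RELA or RELB call in vehicle. The value at 6 h was thus as high as that at 30 min, unlike at the *IFIH1* site or the *IRF1* promoter site. *OASL*, on another part of the chromosome, had no RELA or RELB region.

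The IFIT proteins bind viral RNA lacking the marks of host RNA. *IFIT2* and *IFIT3* had sites, and *IFIT1* and *IFIT5*, farther along the cluster on chromosome 10, had none. The main site, within 1 kb of an alternative *IFIT3* start, had RELA of 12.5 and 9.05 after TNFα and RELB of 4.92 at 6 h of TWEAK. H3K27ac within 500 bp of its summit was called only at 30 min of TNFα, with 2.37. The canonical *IFIT3* start carried RELA at 30 min of TNFα alone, with 7.33. Among the RELA and RELB lists, a site upstream of *IFIT2* (chr10:89279613-89279819) was called only for RELB at 6 h of TWEAK, with 7.46.

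Guanylate-binding proteins attack the vacuoles of intracellular microbes. Both *GBP1* and *GBP2* had RELA at their promoters at 30 min of TNFα and in no other RELA or RELB list. At *GBP1* (chr1:89065159-89065358) the value was 11.2, and the 200 bases around the summit held the printed ISRE and no NF-κB match. At *GBP2* (chr1:89126079-89126334) it was 6.36, at a site with an AP-1 match (TGANTCA) and a FOSL1 region of 12.5. *GBP1* was among the stronger RELA promoters at 30 min and had no RELA region at 6 h.

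The 14 other induced genes include *ISG15*, a ubiquitin-like modifier, *MX1* and *MX2*, GTPases that trap viral particles, *RSAD2*, the enzyme viperin, and *BST2*, which tethers budding virions. RELA at 30 min of TNFα lay near *ISG15*, *ISG20*, *IFI6* and *SAMHD1*, or 4 of 14, a smaller share than the 44.3% of the other genes. The *ISG15* sites lay in introns of *AGRN*, and the one at chr1:1025797-1026073 had RELA of 6.69 and 6.46 after TNFα and RELB of 8.78 at 6 h of TWEAK. The *IFI6* site (chr1:27659651-27659881) had RELA of 9.67 and 8.98 and no RELB. *SAMHD1*, which degrades the nucleotides a virus needs, had distal sites only (8.29 and 4.31 at the stronger). They lay 89501 bp and 64353 bp from its canonical start and counted through other annotated starts. *ISG20*, an exonuclease, had RELA of 5.04 and 5.60 at 30 min of TNFα at 2 sites. The first lay 306 bp upstream of the nearest annotated start. The second lay in intron 2, 983 bp downstream of an alternative start and 9787 bp from the canonical one.

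No RELA or RELB region of any list lay within 50 kb of the remaining 10 genes of this group, *IFI35*, *IFI44*, *IFI44L*, *MX1*, *MX2*, *RSAD2*, *DDX60*, *USP18*, *BST2* and *XAF1*. The same held for *IFITM1*, *IFITM2* and *IFITM3*, membrane proteins that block the entry of viruses. With *IRF5*, *IFNL1*, *OASL*, *IFIT1* and *IFIT5*, 18 of the 38 genes had none. A list does not show whether signal was absent there or below the threshold of the peak caller.

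The genes without RELA or RELB were not without acetylation. Within 50 kb, H3K27ac lay near 37 genes in vehicle and near 38 (TNFα, 30 min), 38 (TNFα, 6 h), 37 (TWEAK, 30 min) and 38 (TWEAK, 6 h), against 90.1%, 88.6%, 90.1%, 89.1% and 89.7% of the other genes. Only *IFNB1* was without it, in vehicle and at 30 min of TWEAK. Within 1 kb of a start site the counts were 31 in vehicle (background 66.7%). After TNFα they were 32 (background 64.9%) and 32 (66.6%) at the earlier and later time, and after TWEAK 32 (65.5%) and 30 (66.2%). Counting any annotated start site, the gene set had promoter H3K27ac in 78.9% to 84.2% of cases, in vehicle as after treatment. With 1 start site per gene the shares were lower and closer to the background. They were 68.4% in vehicle (background 59.4%), 68.4% (57.6%) and 73.7% (59.2%) at the earlier and later TNFα time. After TWEAK they were 68.4% (58.2%) at 30 min and 63.2% (58.8%) at 6 h. *MX1*, *RSAD2*, *DDX60* and *USP18* had promoter H3K27ac in all 5 lists, with values of 4.86, 4.64, 5.76 and 3.77 in vehicle.

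Few promoters changed their call. At 30 min of TNFα, *BST2* and *IRF7* gained H3K27ac within 1 kb (background 1.15%) and *IRF5* lost it (background 3.0%). At 6 h of TNFα, *BST2* gained it (background 1.02%) and none lost it (background 1.18%). At 30 min of TWEAK, *BST2* and *IRF7* gained it (background 1.05%) and *IFI6*, a small mitochondrial protein that restrains cell death, lost it (background 2.33%). At 6 h of TWEAK none gained it (background 0.835%) and *IRF5* lost it (background 1.36%). The values of the gained calls were low, from 2.47 to 3.21 for *BST2*, which had no RELA or RELB region. For *IRF7* they were 2.9 (TNFα) and 2.77 (TWEAK). The lost calls had vehicle values of 3.56 for *IRF5* and 3.87 for *IFI6*. *IFNB1*, *IFNL1*, *MX2*, *OAS2* and *XAF1* had no promoter H3K27ac in any list.

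**Figure D4:**
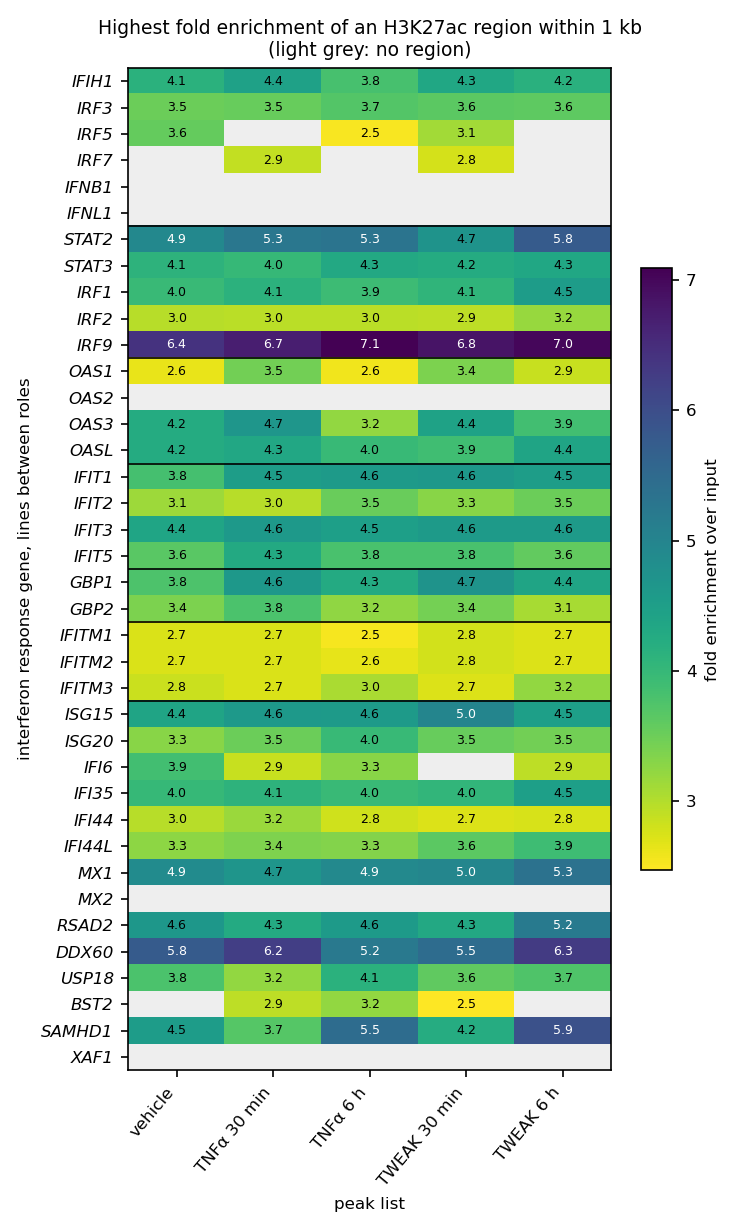
Highest fold enrichment over input of an H3K27ac region within 1 kb of a start site of each gene (rows, grouped by role) in the 5 conditions. Most rows are filled across, with values between 2.47 and 7.09, and the calls that differ between conditions are those of *IRF5*, *IRF7*, *IFI6* and *BST2*.

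The RELA sites near the gene set mostly lay in chromatin that was already acetylated. H3K27ac within 500 bp of the summit was called in all 5 lists at 36 of the 42 sites, in no list at 2 (beside *IL23A* and 2492 bp from an alternative *IRF1* start), and in some lists at 4. Of the latter, the sites at *IFIT3*, *IFNB1* and *IRF1* were acetylated after TNFα and not in vehicle within that distance. Next to the *IRF1* site, a neighbouring site with the same TNFα values was acetylated in vehicle too. A *SAMHD1* site was acetylated in vehicle and after TWEAK but not after TNFα. For RELA regions at 30 min of TNFα outside tandem repeats, 32 of 37 near the gene set (86.5%) were acetylated in vehicle, against 63.1% of the other 8271. Here and in the region shares, medians and motif counts below, the other regions lie at any distance from a gene. They were not matched to the regions near the gene set for distance to a start site. Among genes with promoter H3K27ac in vehicle, RELA at 30 min of TNFα lay near 17 of 31 (54.8%), against 51.0% of the other genes so marked, and RELB at 6 h of TWEAK near 11 of 31 (35.5%), against 14.3%.

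FOSL1 in vehicle was near most genes of any kind. It lay within 50 kb of 34 of the 38 genes, against 88.7% of the others, and within 1 kb of 20, against 50.8%. *IFI6*, *MX1*, *MX2* and *XAF1* had none within 50 kb. The highest value, 20.6, was near *BST2*. Of the 42 RELA and RELB sites 22 overlapped a FOSL1 region. Outside tandem repeats, 18 of 37 RELA regions at 30 min of TNFα near the gene set overlapped FOSL1 (48.6%, against 48.8% of the other regions), and 4 of 12 RELB regions at 6 h of TWEAK did (33.3%, against 63.9%).

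The fold enrichment of the regions near the gene set was higher than elsewhere for RELA after TNFα, and not in every RELA list. Outside tandem repeats the median at 30 min of TNFα was 7.81 for 37 regions, against 6.20 for the others, and at 6 h it was 8.72 for 21 regions, against 6.38. In vehicle it was 6.03 for 4 regions, against 6.47. After TWEAK it was 8.74 for 5 regions at 30 min, against 7.15, and 5.26 for 2 regions at 6 h, against 5.55. For RELB at 6 h of TWEAK it was 7.0 for 12 regions, against 6.96. Of the 37 RELA regions at 30 min, 19 overlapped a RELA region at 6 h (51.4%, against 35.2%) and 10 a RELB region at 6 h of TWEAK (against 15.7%).

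Motifs were searched in the 200 bases around each summit on both strands. The NF-κB consensus matched 21 of 37 RELA regions at 30 min of TNFα near the gene set (56.8%, against 46.2% of the others outside tandem repeats) and 11 of 12 RELB regions at 6 h of TWEAK (91.7%, against 63.0%). The ISRE matched 3 of the 37 (8.11%, against 3.01%), at *OAS3*, *GBP1* and *GBP3*, the STAT motif 5 (13.5%, against 8.66%) and the AP-1 motif 6 (16.2%, against 19.0%). A match gives the letters only and does not show that a factor bound them.

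The same search in RefSeq promoters of GRCh38.p14, from 250 bases before to 50 after the start, matched 28 of the 38 genes and 15317 others by symbol. The ISRE was in the promoters of 17 of the 28 genes (60.7%, against 3.08% of the others), the STAT motif in 8 (28.6%, against 6.91%), the NF-κB consensus in 7 (25.0%, against 6.32%) and the AP-1 motif in 2 (7.14%, against 5.74%). Of the 17 genes with an ISRE promoter, 7 had RELA within 50 kb at 30 min of TNFα (41.2%), and of the 11 without it, 7 did (63.6%). The 7 with an NF-κB match were *BST2*, *IFIH1*, *IFITM3*, *IFNB1*, *IRF1*, *OAS3* and *XAF1*, of which *IFIH1*, *IFNB1*, *IRF1* and *OAS3* had RELA within 50 kb. *BST2*, *IFITM3* and *XAF1* thus held the letters in the promoter without a called region.

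**Figure D5:**
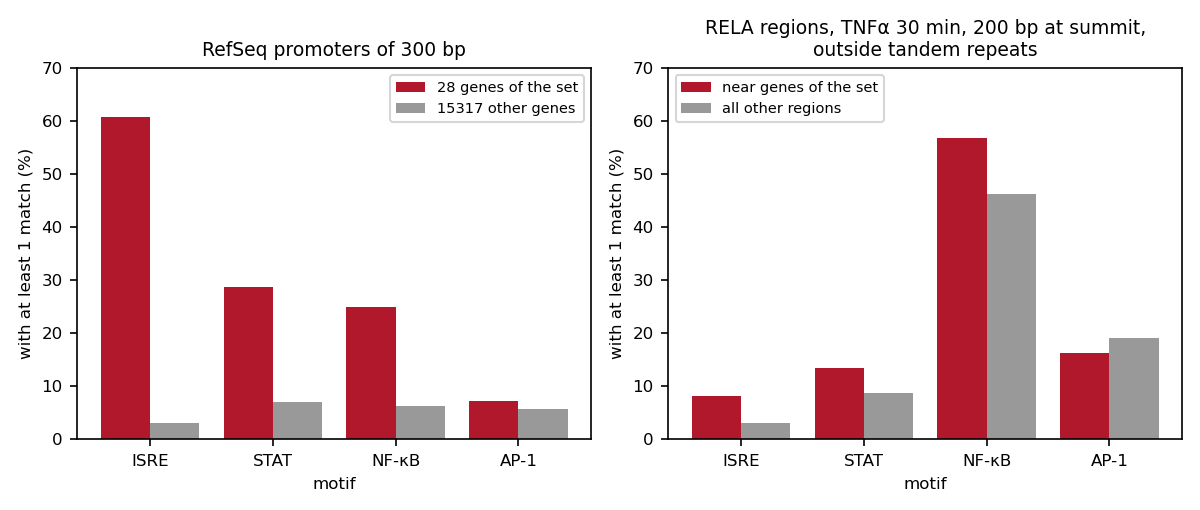
Percent of sequences with at least 1 motif match, for RefSeq promoters (left) and for the 200 bp around RELA summits at 30 min of TNFα outside tandem repeats (right), near or in the gene set (red) and elsewhere (grey). The ISRE stands out in the promoters (60.7% against 3.08%), and the NF-κB consensus is the most frequent match in the RELA regions of either kind (56.8% against 46.2%).

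The rest of the pathway was looked up in 34 further genes, a list that was written with earlier results of these data known. RELA at 30 min of TNFα lay within 50 kb of 23 of them (67.6%), RELA at 6 h near 19 (55.9%) and RELB at 6 h of TWEAK near 14 (41.2%), where the shares of all genes outside the 38 were 44.3%, 24.4% and 12.0%. Among the 9 receptors and kinases, 8 had RELA at 30 min and 6 had RELB at 6 h of TWEAK, including *IFNAR1* and *IFNAR2*, the chains of the receptor for interferon alpha and beta. These counts are not independent, since *IFNAR2*, *IL10RB*, *IFNAR1* and *IFNGR2* are neighbours on chromosome 21. *IFNAR1* and *IFNGR2* had the same highest values (RELA 17.7, RELB 16.7), as did *IFNAR2* and *IL10RB* for RELA (10.5). Among 11 further induced genes, such as *PML* and *ADAR*, 5 had RELA, a share close to the 44.3%, and 2 had RELB. The remaining genes were sensors, adaptors, factors and feedback inhibitors.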

How the data were processed

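ChIP-seq peak lists of RELA, RELB, FOSL1 and H3K27ac from L3.6pl cells were used, 1 list for each of 16 conditions. Per the submitters' processing notes, Bowtie2 2.5.0, SAMtools 1.18, deepTools 3.3.2 and MACS2 were used by the authors with genome build hg38; the MACS2 version is not given in the sources used here. The authors called 11 lists of narrow and 5 lists of broad peaks against input from merged replicates. The deposited fold enrichment is a ratio of ChIP over input, and the deposited −log10 q is the significance of a peak, averaged over the peak in the broad lists. The deposited summit position gives the offset of the highest point of a narrow peak. The 16 columns of −log10 p were not used, and 0 other columns of per-sample values were left out.

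Comparison was restricted to chromosomes 1 to 22, X and Y, with GENCODE 44 start sites, in Python 3.11.15 with numpy 2.4.6, pandas 2.3.3, numba 0.67.0 and pysam 0.24.0, and figures were drawn with matplotlib 3.10.9. Overlaps needed at least 1 bp. A region lay in a tandem repeat when the 1000 bp around its summit matched itself at a shift of 1 to 400 bp in at least 0.4 of positions. The functions were tested on simulated data. The genes and lists were chosen with earlier results of these data known. All 20 genes with a RELA or RELB region were named, with every list's value for the 10 sites of highest RELA value at 30 min of TNFα, the 10 of highest RELB value at 6 h of TWEAK and sites within 1 kb of a start. Some items of these lists are not reported here. Of the sites within 1 kb, the lower ones are given with their RELA values only. With 1 merged list per condition no test was run. The alternatives covered other distances, start sites, thresholds, list lengths, repeats and gene assignment.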

Additional observations from a re-analysis of the deposited data

How the results depend on the processing

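Counts of genes were recomputed under 109 alternatives for 14 results, of which 91 stayed within 1.5 times the count given and 18 did not. With 10 kb in place of 50 kb the RELA counts were 13 at 30 min (background 21.5%) and 8 at 6 h of TNFα (10.1%). After TWEAK they were 3 at 30 min (2.63%) and 1 at 6 h (1.69%). RELB had 8 at 6 h of TWEAK (background 4.48%) and 0 at 6 h of TNFα (1.11%). With 100 kb RELA at 6 h of TWEAK had 6 (background 7.75%). Counting only the nearest gene gave 13 (background 23.6%), 7 (11.6%), 3 (2.89%) and 1 (1.92%) for RELA in the same order. For RELB at 6 h of TWEAK it gave 6 (background 5.76%), and 6 without vehicle (4.79%). For RELB at 6 h of TNFα it gave 0 (1.62%). With the 2000 strongest regions of each list, RELA at 6 h of TWEAK had 1 (2.63%, against 2.73%) and RELB at 6 h of TNFα 1 (background 2.22%). RELB at 6 h of TWEAK without vehicle had 7 there (background 6.88%). Outside tandem repeats RELB at 6 h of TNFα had 1 (background 2.59%).

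The side of the background on which the gene set lay turned in 13 alternatives, 6 of them for RELA at 30 min of TNFα without vehicle (26.3% against 11.8% with the 2000 strongest regions), 3 each for FOSL1 and for RELB at 6 h of TNFα and 1 for RELA at 6 h of TWEAK. The restriction to genes with promoter H3K27ac was added after the data were seen. No paired analysis was possible because replicates were merged in the deposited lists, and for the same reason no replicate could be left out.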

Other observations

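The median length covered by H3K27ac was higher around the gene set than elsewhere. Within 50 kb of the 5′ end of a gene, H3K27ac regions covered a median of 3.83 kb at the 38 genes in vehicle, against 3.38 kb at the other genes, and 4.23 kb against 3.38 kb at 6 h of TNFα. The medians were 3.30 kb against 2.85 kb at 30 min of TNFα, 3.27 kb against 2.95 kb at 30 min of TWEAK and 3.42 kb against 2.93 kb at 6 h of TWEAK. FOSL1 regions covered a median of 0.924 kb against 0.74 kb, and their median number per gene was 2.5 against 3.0.

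Some promoters had H3K27ac values that differed between the lists without any change of call. *OAS1* had 2.63 in vehicle, and its values at 30 min were 3.46 (TNFα) and 3.39 (TWEAK), against 2.57 and 2.85 at 6 h. *SAMHD1* had 4.54 in vehicle, 3.68 and 5.46 after TNFα and 4.23 and 5.94 after TWEAK, so both 6 h lists exceeded both 30 min lists. *IRF9* had the highest promoter values of the set in every list, from 6.41 to 7.09. With 1 list per condition, none of these differences was tested.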
